A study of Mus musculus with 12 samples.

Results

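The cytosolic cascade of the B cell receptor was followed here through 9 genes: Syk, Blnk, Btk, Plcg2, Vav1, Prkcb, Rasgrp3, Bcl10 and Malt1. The members were taken by gene symbol, and all 9 were present among the 12212 symbols of the count files and among the 12081 genes that passed the filter on low counts. When antigen crosslinks the receptor, the kinase Syk is recruited to its phosphorylated tails and phosphorylates the adaptor Blnk, which brings together Btk, Plcg2 and Vav1. Plcg2 then makes the second messengers that release calcium and activate Prkcb and Rasgrp3, and Prkcb acts upstream of Bcl10 and Malt1 on the way to NF-kB. In germinal centers, B cells divide in the dark zone and test their receptor against antigen in the light zone, and receptor signalling there is known to be dampened relative to that of resting B cells.

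The RNA came from germinal center B cells that were sorted from spleen, 1000 cells to each bulk library. The mice were NZBWF1/J, an F1 hybrid strain used as a model of lupus. There were 4 groups of 3 libraries: light zone treated, light zone control, dark zone treated and dark zone control. Treated mice received 6 doses each of 200 µg CTLA4-IG and 250 µg Anti-CD40L over 2 weeks, starting at 18 weeks of age. Control mice had no treatment. CTLA4-IG is a fusion protein that blocks CD28 costimulation, and Anti-CD40L is an antibody against the CD40 ligand on T cells. The labels gave no vehicle or isotype antibody for the control mice, no age at which control mice were taken, and no statement on which light and dark zone libraries shared a mouse. Nothing in the labels said whether replicates were separate mice, and the p-values therefore rest on a spread among libraries that may be partly technical. In bulk libraries, fewer cells with a transcript and less transcript per cell cannot be told apart.

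Libraries held 16032746 to 26837714 counts, so that 3 counts, the limit a count of 0 allows, corresponded to 0.112 to 0.187 counts per 1000000 (CPM). B cell markers were abundant in every library, with a summed level of the 8 genes between 5456 and 9497 CPM, and the 9 germinal center B cell markers summed to between 2092 and 4730 CPM. A set of 3 treated libraries, dark zone treated 1 and 2 and light zone treated 2, stood apart from the rest. The first principal component (30.3% of the variance) placed them between 146.6 and 165.7, against -102.9 to 20.4 for the other 9 libraries. Counts were present for 12188 to 12195 symbols in these 3 libraries, against 11384 to 11960 in the other 9. Light zone treated 3 lay alone on the second component, at -172.9. Without these 3, 2 light zone and 1 dark zone treated libraries remain.

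In the annotation of build GRCm38 (mm10) the genes lie on 8 chromosomes apart from each other, with Vav1 and Rasgrp3 sharing chromosome 17. Btk spans chrX:134542336-134583570 on the minus strand, Syk chr13:52583173-52648792 on the plus strand, Rasgrp3 chr17:75435896-75529054 on the plus strand and Vav1 chr17:57279100-57328031 on the plus strand. None of the 9 shares an exon base with another annotated gene. For Syk, Prkcb and Rasgrp3, which have more than 1 curated RefSeq transcript, the deposited value ended in a fraction midway between whole numbers in 6, 7 and 6 libraries. Blnk, Vav1 and Malt1 also have more than 1 such transcript and had no midway value. How the midway values arose is not known, so they are uncertain as counts of reads per gene.

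The 150 bases upstream of the start of Btk, Prkcb, Vav1, Rasgrp3 and Blnk are shown for 3 members whose dark zone treated and control libraries did not overlap (Btk, Prkcb and Vav1) and for the 2 members with the smallest spread within groups (Rasgrp3 and Blnk). They are RefSeq promoters of build GRCm38.p6, written 5′ to 3′ on the strand of the gene. The starts are those of RefSeq, whereas the gene spans given above follow GENCODE. The windows of Btk, Prkcb and Blnk lie inside the GENCODE span of the gene, and that of Rasgrp3 overlaps the first bases of its span. Capitals mark a match to the octamer ATGCAAAT, the site of Oct factors, read on either strand, or to GAGGAAGT, a purine-rich ETS site, read on either strand; these motifs do not overlap. The windows are chrX:134583141-134583290 (minus strand) for Btk, chr7:122288975-122289124 (plus) for Prkcb, chr17:57278950-57279099 (plus) for Vav1, chr17:75435755-75435904 (plus) for Rasgrp3 and chr19:40994222-40994371 (minus) for Blnk.
Btk: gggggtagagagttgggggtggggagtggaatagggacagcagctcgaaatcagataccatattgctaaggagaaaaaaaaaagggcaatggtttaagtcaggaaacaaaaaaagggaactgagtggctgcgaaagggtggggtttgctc
Prkcb: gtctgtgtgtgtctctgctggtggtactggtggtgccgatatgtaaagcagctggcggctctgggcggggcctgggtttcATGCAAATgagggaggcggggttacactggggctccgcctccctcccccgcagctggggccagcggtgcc
Vav1: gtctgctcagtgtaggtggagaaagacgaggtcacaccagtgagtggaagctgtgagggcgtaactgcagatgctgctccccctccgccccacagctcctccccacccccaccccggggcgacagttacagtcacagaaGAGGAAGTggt
Rasgrp3: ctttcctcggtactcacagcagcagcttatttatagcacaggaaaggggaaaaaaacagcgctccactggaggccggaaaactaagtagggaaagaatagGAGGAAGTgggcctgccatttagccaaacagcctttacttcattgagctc
Blnk: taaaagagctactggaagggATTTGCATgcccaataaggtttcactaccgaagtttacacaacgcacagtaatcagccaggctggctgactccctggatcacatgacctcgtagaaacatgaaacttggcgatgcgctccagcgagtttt
The octamer stood 70 to 63 bases upstream of the start of Prkcb and, on the other strand, 130 to 123 bases upstream of that of Blnk. The ETS letters stood 11 to 4 bases upstream of the start of Vav1 and 50 to 43 bases upstream of the first RefSeq start of Rasgrp3. Among 32851 promoter windows of 300 bases, 1.74% held the octamer and 3.20% the ETS letters. Neither string of letters was in the Btk window, nor in the other promoters searched, which in all were 10 windows of 8 members.

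Per kilobase of exon, Blnk was the most abundant member in the control libraries, with a median level of 57.4 CPM per kb. Rasgrp3 followed at 20.3, Plcg2 at 18.6 and Bcl10 at 13.7 CPM per kb, and then Vav1 at 7.33, Prkcb at 4.31, Syk at 3.28 and Btk at 2.82 CPM per kb. Malt1 was lowest, at 0.937 CPM per kb. The adaptor was thus the highest and the paracaspase the lowest on this scale, while the 3 kinases Prkcb, Syk and Btk lay close together. Levels of neighbours in this order, such as Rasgrp3 and Plcg2, or Syk and Btk, overlapped between libraries. The order depends on the annotated exon length, which was 18.04 kb for Malt1 and 3.15 kb for Btk. Before division by length the control median was 16.9 CPM for Malt1 and 8.87 CPM for Btk.

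The members also differed in how far libraries of the same group lay apart. Within groups, the standard deviation (SD) of log2 CPM was 0.31 for Rasgrp3 and 0.35 for Blnk, smaller than in all but 2.87% and 4.51% of tested genes. Vav1 had an SD of 0.54, Plcg2 0.59, Prkcb 0.77 and Btk 0.92 on this scale. Malt1 at 1.03 was near the median of all genes, 1.10, and Bcl10 at 1.52 and Syk at 1.77 lay above it. A difference of a given size therefore stands out more in Rasgrp3 and Blnk than in Syk or Bcl10.

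**Figure D1:**
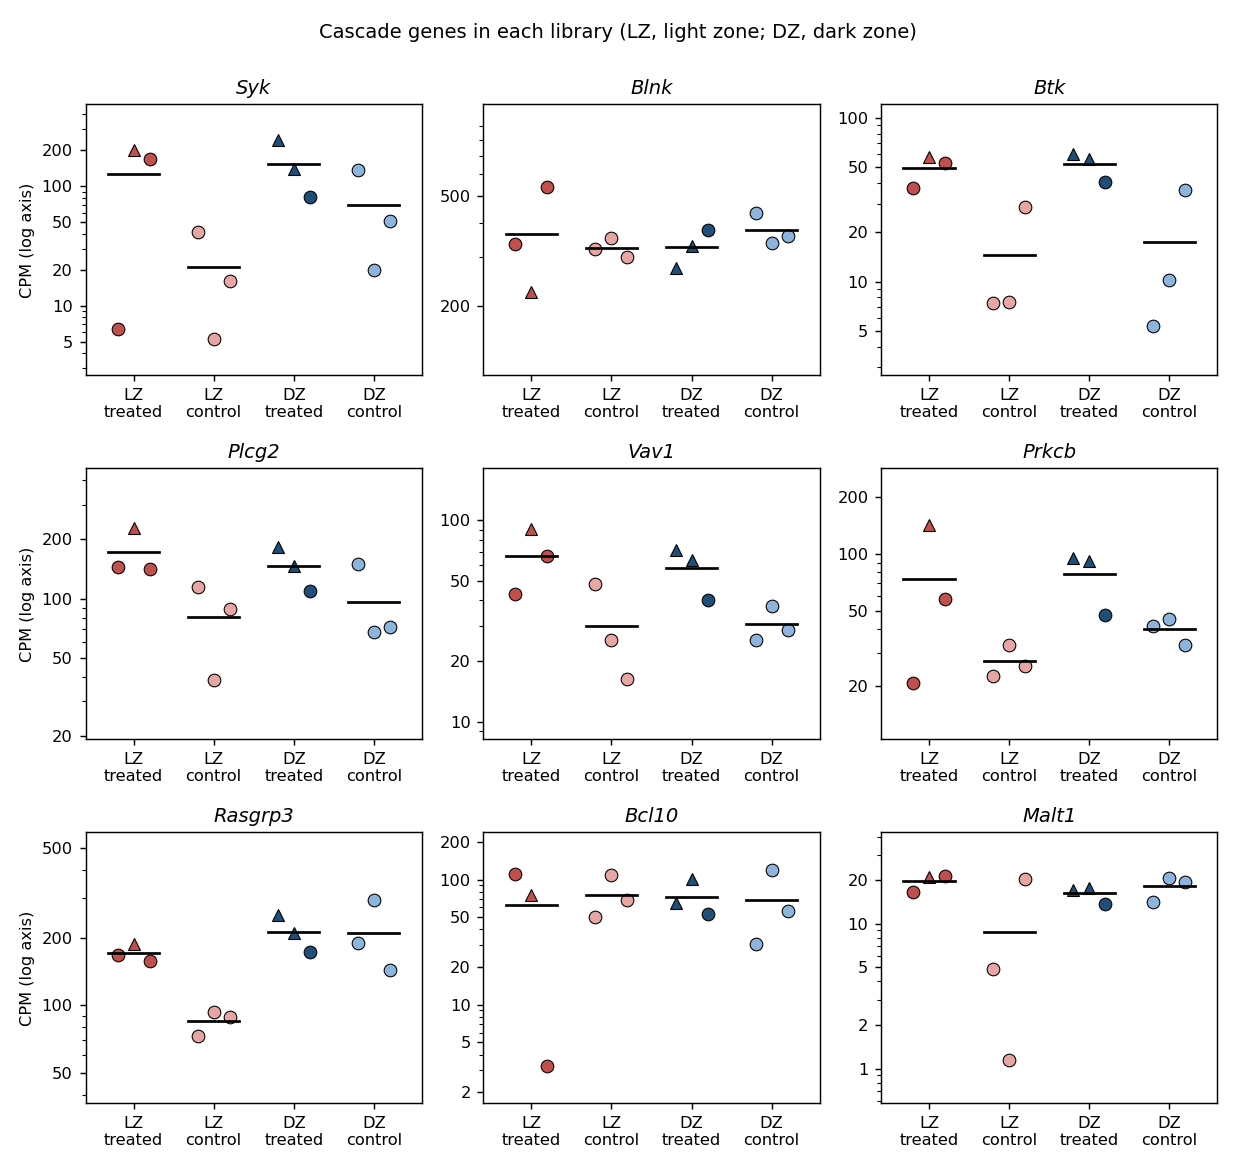
Level of each cascade gene in every library (y axis, CPM, log scale) by group (x axis). Points are libraries, triangles the 3 libraries that stand apart on the first principal component, and lines group means; all 6 Btk values of treated libraries (37.2 to 60.5 CPM) lie above all 6 of control libraries (5.35 to 36.5 CPM), and light zone controls hold the 3 lowest Rasgrp3 values.

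The comparison of treated with control mice addresses whether blocking CD28 and CD40 help alters the receptor cascade of germinal center B cells. At the level of transcripts, the values of Btk were higher in all 6 treated libraries than in any of the 6 control libraries, and those of Plcg2, Vav1, Prkcb and Syk were mostly higher. Blnk and Bcl10 showed no such pattern, and Rasgrp3 and Malt1 differed in the light zone means alone. None of these differences passed edgeR's quasi-likelihood test after adjustment over all genes; nor did any other of the 12081 genes (0%) in either zone or in the average of the zones. DESeq2 and limma, run on the same counts as alternatives, called Btk in the average of the zones, and limma also Vav1.

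Btk is the Tec family kinase that phosphorylates and activates Plcg2. In the light zone it had 37.2, 57.5 and 52.9 CPM in treated libraries, against 7.39, 7.46 and 28.6 CPM in control libraries. Dark zone values of Btk were 60.5, 56.4 and 40.8 CPM in treated libraries, against 5.35, 10.3 and 36.5 CPM in controls. Treated and control values did not overlap in either zone, and the lowest treated library, light zone treated 1, lay just above the highest control, dark zone control 3. Among all tested genes, 0.811% were likewise higher in all 6 treated than in all 6 control libraries and 1.01% lower, and none of the other 8 members was either. The mean was 49.2 ± 10.6 CPM in light zone treated and 14.5 ± 12.2 CPM in light zone control libraries (SD, n = 3 each), and 52.6 ± 10.4 CPM in dark zone treated and 17.4 ± 16.8 CPM in dark zone control libraries (SD, n = 3 each). The log2 difference, treated minus control, was 1.76 ± 0.77 in the light zone and 1.60 ± 0.77 in the dark zone (SE), a difference between zones of 0.17 ± 1.06. With 1 library left out the treatment difference ranged over 1.445 to 2.73 in the light zone and 1.17 to 2.75 in the dark zone. The upper ends came from leaving out control 3 of the zone, the highest control value. Averaged over zones the log2 difference was 1.68 ± 0.55 (SE), with an adjusted p of 0.232 in edgeR, 0.0334 in DESeq2 and 0.0412 in limma with voom and quality weights. Those rules called 0%, 6.32% and 8.83% of the genes they tested.

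For Btk the 3 libraries that stand apart held the 3 highest values, 56.4 to 60.5 CPM, against 5.35 to 52.9 CPM in the other 9; 13.7% of tested genes were higher and 16.7% lower in these 3 libraries without overlap. The other 3 treated libraries still lay above the 6 controls, at 37.2, 52.9 and 40.8 CPM. Without the 3 libraries the averaged log2 difference of Btk was 1.45 ± 0.76 (SE), with an adjusted p of 0.72 in edgeR and 0.397 in DESeq2. The DESeq2 call was thus not kept in the 9 libraries, where DESeq2 called 3.44% of genes.

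Plcg2 encodes the phospholipase C that Btk and Syk activate. Its light zone values were 144, 229.7 and 142 CPM in treated libraries, against 115, 38.5 and 88.2 CPM in control libraries. Its dark zone values were 182, 147 and 109.8 CPM in treated libraries, against 149.8, 67.4 and 71.7 CPM in control libraries. The groups did not overlap in the light zone, whereas in the dark zone control 1 lay above treated 2 and 3. The log2 difference was 1.10 ± 0.48 in the light zone and 0.60 ± 0.47 in the dark zone (SE), with adjusted p-values of 0.674 and 0.614 in edgeR. It was 0.84 ± 0.54 and 0.20 ± 0.69 without the 3 libraries that stand apart. With 1 library left out the dark zone value ranged over 0.40 to 1.07, the upper end without dark zone control 1.

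Vav1, the exchange factor that activates Rac downstream of Syk, had 43.1, 90.7 and 66.4 CPM in light zone treated libraries, against 48.1, 25.4 and 16.3 CPM in light zone control libraries. Dark zone values of Vav1 were 71.1, 63.6 and 40.2 CPM in treated libraries, against 25.6, 37.5 and 28.5 CPM in control libraries. Dark zone groups did not overlap, and in the light zone 1 treated library lay below 1 control. Averaged over zones the log2 difference was 1.05 ± 0.35 (SE), with an adjusted p of 0.232 in edgeR, 0.0574 in DESeq2 and 0.0336 in limma. The 9 libraries left without those that stand apart gave 0.65 ± 0.45 (SE), with an adjusted p of 0.768 in edgeR and 0.581 in DESeq2.

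Syk starts the cascade and also serves Fc receptor and integrin signalling in myeloid cells. Its light zone values were 6.43, 200.5 and 171 CPM in treated libraries, against 41.6, 5.22 and 16 CPM in control libraries. Its dark zone values were 242, 139 and 81.2 CPM in treated libraries, against 137, 19.8 and 51.1 CPM in control libraries. Light zone treated 1 lay near the lowest control, far below the other 5 treated libraries, and dark zone control 1 lay above dark zone treated 3, so the groups overlapped in both zones. The log2 difference was 2.59 ± 1.16 in the light zone and 1.15 ± 1.11 in the dark zone (SE), the largest light zone difference of the 9 members and also the one with the largest error. These values were 2.08 ± 1.40 and 0.24 ± 1.76 (SE) when the 3 libraries that stand apart were left out. The dark zone value ranged over 0.67 to 2.12 with 1 library left out, the upper end without dark zone control 1.

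Prkcb encodes protein kinase C beta, which diacylglycerol and calcium activate. It had 20.9, 142 and 57.6 CPM in light zone treated libraries, against 22.7, 32.8 and 25.7 CPM in light zone control libraries. Dark zone values of Prkcb were 95.4, 92.3 and 47.9 CPM in treated libraries, against 41.6, 45.5 and 33.2 CPM in control libraries. The dark zone groups did not overlap, while light zone treated 1 lay below every control. The 3 libraries that stand apart had 92.3 to 142 CPM, against 20.9 to 57.6 CPM in the other 9, without overlap. The log2 difference was 1.44 ± 0.61 in the light zone and 0.97 ± 0.60 in the dark zone with all 12 libraries, and 0.54 ± 0.53 and 0.27 ± 0.67 without the 3 (SE).

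Rasgrp3 activates Ras in response to diacylglycerol. Light zone treated libraries had 168, 187 and 157 CPM, against 73.4, 93.0 and 89.1 CPM in light zone control libraries. Dark zone treated libraries had 252, 209 and 173 CPM, against 189, 293 and 144 CPM in dark zone control libraries. Light zone groups were far apart relative to their spread, with a mean of 171 ± 15.5 CPM after treatment and 85.2 ± 10.4 CPM in controls (SD, n = 3 each). Dark zone means were 211 ± 39.6 CPM after treatment and 209 ± 76.7 CPM in controls (SD, n = 3 each). For Rasgrp3 the log2 difference was 1.0 ± 0.32 in the light zone and 0.02 ± 0.32 in the dark zone (SE). The light zone value had an adjusted p of 0.674 in edgeR and 0.109 in DESeq2. It remained 0.94 ± 0.32 in the light zone without the 3 libraries. The difference between zones in the treatment difference was 0.98 ± 0.45 (SE), with a p of 0.0522 before and 0.9999 after adjustment in edgeR.

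Blnk, the adaptor that holds the complex together, had 336, 223 and 537 CPM in light zone treated libraries, against 321, 351 and 299 CPM in light zone control libraries. Dark zone treated libraries held 274, 330.3 and 377 CPM of Blnk, against 432, 336 and 357 CPM in dark zone control libraries. Groups overlapped in both zones, and the lowest and the highest values were both in light zone treated libraries. The log2 difference of Blnk was 0.17 ± 0.33 in the light zone and -0.20 ± 0.33 in the dark zone (SE), and in the light zone it was -0.21 without light zone treated 3.

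Bcl10 and Malt1 belong to the complex that carries the signal to NF-kB, Bcl10 as the adaptor that forms filaments and Malt1 as the paracaspase. Bcl10 had 112, 75.1 and 3.25 CPM in light zone treated libraries, against 50.4, 109 and 68.7 CPM in light zone control libraries. The value of 3.25 CPM stood for 63 counts in light zone treated 3, the library that lay alone on the second component. In the dark zone Bcl10 had 65.2, 102 and 53.0 CPM in treated libraries, against 30.4, 119.5 and 56.2 CPM in control libraries, with full overlap. Malt1 had 16.6, 20.9 and 21.4 CPM in light zone treated libraries, against 4.84, 1.15 and 20.3 CPM in light zone control libraries. In the dark zone it had 17.3, 17.7 and 13.7 CPM in treated libraries, against 14.2, 20.7 and 19.6 CPM in control libraries. Thus 2 light zone controls had low Malt1, and the other 10 libraries lay between 13.7 and 21.4 CPM. The light zone log2 difference was 1.16 ± 0.85 for Malt1 and -0.26 ± 0.92 for Bcl10 (SE), with adjusted p-values of 0.77 and 0.951 in edgeR. Without light zone treated 3 the Bcl10 value was 0.30. The Malt1 value was 0.64 without light zone control 2 and 2.71 without light zone control 3.

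**Figure D2:**
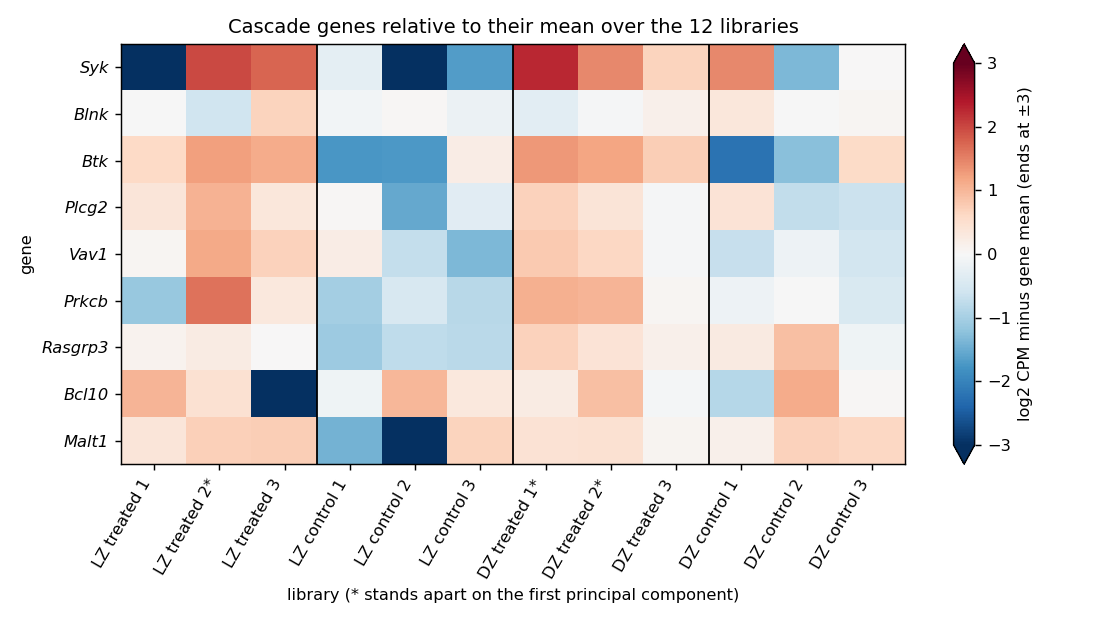
Log2 CPM of each cascade gene minus its mean over the 12 libraries (colour), with genes in rows and libraries in columns; asterisks mark the libraries that stand apart and the colour scale ends at ±3. The marked columns are above the mean for 8 of 9 genes, all but Blnk. They are above every other column for Btk and Prkcb alone, beside 13.7% of all tested genes. The single darkest cells are Syk in light zone treated 1 and light zone control 2, Bcl10 in light zone treated 3 and Malt1 in light zone control 2.

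Counted over the cascade, the light zone treatment difference was positive for 8 of the 9 members, all but Bcl10, beside 54.1% of all tested genes. The median log2 difference was 1.16 for the members and 0.10 for all genes. In edgeR, 6 members had a p under 0.05 before adjustment (Syk, Btk, Plcg2, Vav1, Prkcb and Rasgrp3), beside 7.36% of all genes, and 0 after adjustment; DESeq2 and limma called 0 members, beside 1.9% and 0% of the genes they tested. Higher without overlap were 3 members, Btk, Plcg2 and Rasgrp3, beside 5.82% of all genes, and 0 were lower without overlap, beside 5.49%.

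The dark zone difference was positive for 7 members, all but Blnk and Malt1, beside 52.2% of all genes, with a median of 0.60 against 0.06. Here 0 members had a p under 0.05 before adjustment in edgeR, beside 8.9% of all genes, and 0 were called by DESeq2, beside 0.62%. Limma called 3 members, Btk, Vav1 and Prkcb, beside 26.3% of all genes. These 3 were also the members higher without overlap, beside 12.5% of all genes, and 0 were lower without overlap, beside 11.2%. Leaving out the libraries that stand apart keeps 1 dark zone treated library. The dark zone values that follow rest on it and have no spread among treated libraries. Among all genes 48.1% then had a positive difference in the light zone and 45.4% in the dark zone, with medians of -0.04 and -0.11. Without the 3 libraries that stand apart, 8 members in the light zone and 6 in the dark zone had a positive difference, with medians of 0.88 and 0.20, and 0 passed adjustment in edgeR or DESeq2, beside 0% of genes in edgeR and 3.9% and 1.97% in DESeq2. Before adjustment 1 member had a p under 0.05 in the light zone, Rasgrp3, and 0 had one in the dark zone, beside 7.4% and 3.98% of all genes in edgeR.

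The treatment difference was larger in the light zone than in the dark zone for 8 of 9 members, beside 55.5% of all genes, with a median difference between zones of 0.47 against 0.15 (log2). It was 1.44 ± 1.55 for Syk and 1.32 ± 1.19 for Malt1 (SE), with an adjusted p of 0.9999 for each in edgeR. In edgeR 0 members had a p under 0.05 before adjustment, beside 2.28% of all genes, and DESeq2 called 0 members, beside 0.136%. Averaged over zones, 7 members had a positive treatment difference and 6 had a p under 0.05 before adjustment in edgeR, beside 53.9% and 16.7% of all genes, with a median of 0.85. Without the 3 libraries that stand apart 8 members had a positive averaged difference, beside 43.9% of all genes. The median was then 0.41, against -0.11 for all genes, and the dark zone part rests on 1 treated library.

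**Figure D3:**
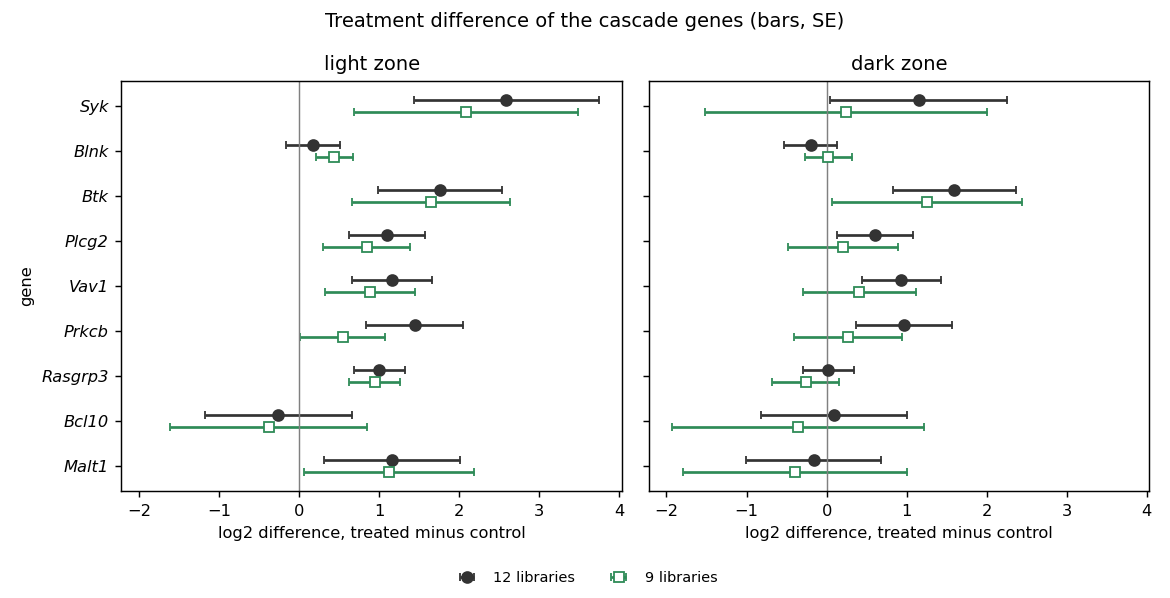
Treatment difference of each cascade gene (x axis, log2, treated minus control) in the light zone (left) and the dark zone (right), from all 12 libraries (filled circles) and from the 9 left without those that stand apart (open squares); bars are standard errors. In the dark zone the 9-library values lie nearer to 0 for Syk, Btk, Plcg2, Vav1 and Prkcb, and in the light zone Rasgrp3 is at 1.0 and 0.94.

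Levels that moved with the 3 libraries were not limited to the cascade. The summed level of 14 macrophage markers was 97.7 to 252 CPM in these 3 libraries, against 26.2 to 94.8 CPM in the other 9. Of these 14 genes 6 were higher in the 3 libraries without overlap (C1qa, C1qb, C1qc, Csf1r, Lyz2 and Vcam1), 1 was lower (Marco) and 7 overlapped. Lyz2 was at 13.7 to 17.9 CPM in the 3 libraries, against 0.103 to 0.523 CPM in the others, and Marco at 3.57 to 4.57 CPM, against 4.73 to 11.8 CPM. The 14 T cell markers summed to 151 to 327 CPM in the 3 libraries, against 122 to 265 CPM in the other 9, and went both ways. Cd3e, Cd4 and Cd8a were higher without overlap, Trat1 was lower, at 2.18 to 2.38 CPM against 17.2 to 31.4 CPM, and 10 overlapped. Germinal center markers summed to 2092 to 2611 CPM in the 3 libraries, against 3467 to 4730 CPM in the other 9. Of these, Rgs13 was lower without overlap, at 166 to 254 CPM against 1503 to 2514 CPM. Fas and Gcsam were also lower without overlap, S1pr2 was higher, at 299 to 328 CPM against 68.5 to 169 CPM, and 5 overlapped. For 7 plasma cell markers the sum was 1949 to 3286 CPM in the 3 libraries, against 8209 to 13610 CPM in the other 9. Of these 7, Jchain and Mzb1 were lower without overlap and 5 overlapped. Jchain alone was at 1109 to 2154 CPM in the 3 libraries, against 6206 to 11320 CPM in the other 9. Macrophages also express Syk, Btk, Plcg2 and Vav1, and T cells express Vav1. The part of these cells in the treatment differences was not tested, nor was that of the 3 libraries beyond the values without them.

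Light and dark zone libraries were compared within control and within treated mice to ask whether the cascade differs between the germinal center compartments. The clearest value was that of Rasgrp3 in control mice, with 73.4, 93.0 and 89.1 CPM in light zone libraries, against 189, 293 and 144 CPM in dark zone libraries. All 3 light zone values lay below all 3 dark zone values; among all genes, 5.6% were lower without overlap. The log2 difference, light minus dark zone, was -1.29 ± 0.32 (SE), with a p of 0.00214 before and 1 after adjustment in edgeR. DESeq2 called it, with an adjusted p of 0.0176 from all 12 libraries and 0.0117 from the 9, where this rule called 0.96% and 1.04% of genes. Rasgrp3 was the 1 member that DESeq2 called in a zone comparison.

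In treated mice the same gene had 168, 187 and 157 CPM in light zone libraries, against 252, 209 and 173 CPM in dark zone libraries. These groups overlapped, since light zone treated 2 lay above dark zone treated 3. The log2 difference in treated mice was -0.31 ± 0.32 (SE), and that averaged over treatments -0.80 ± 0.23, with a p of 0.00472 before and 0.991 after adjustment in edgeR and an adjusted p of 0.0889 in DESeq2, which called 0.544% of genes. The zone comparison in control mice and the light zone treatment comparison use the same 3 light zone control libraries, so their values for Rasgrp3 are not independent.

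Prkcb was the other member whose control groups did not overlap, with 22.7 to 32.8 CPM in light zone and 33.2 to 45.5 CPM in dark zone libraries. Its log2 difference was -0.57 ± 0.60 (SE), and the gap between the nearest libraries was small beside the spread. Syk had a log2 difference of -1.73 ± 1.12 and Malt1 of -1.05 ± 0.85 in control mice, with overlapping groups. In Blnk, Btk, Plcg2, Vav1 and Bcl10 the differences in control mice lay between -0.26 and 0.14 (log2), smaller than their standard errors.

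Over the cascade, 8 of 9 members had a negative zone difference in control mice, with a median of -0.26 against 0.00 for all genes, of which 50.1% were positive. The exception was Bcl10. In edgeR 1 member, Rasgrp3, had a p under 0.05 before adjustment, beside 4.93% of all genes. Limma called 0 members, beside 0.00828% of genes, and 0 members were higher without overlap, beside 4.47%. In treated mice 4 members had a positive difference, beside 52.6% of all genes, with a median of -0.09, and 0 members had a p under 0.05 before adjustment, beside 2.06%, or a DESeq2 call, beside 0.0085%. Without the 3 libraries that stand apart, 7 members had a positive zone difference in treated mice, beside 54.1% of all genes. The median was then 0.16, against 0.09 for all genes. These values rest on 1 dark zone treated library, and each member's difference was smaller than its standard error. No member was higher or lower without overlap in treated mice, beside 2.24% and 3.55% of all genes.

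**Figure D4:**
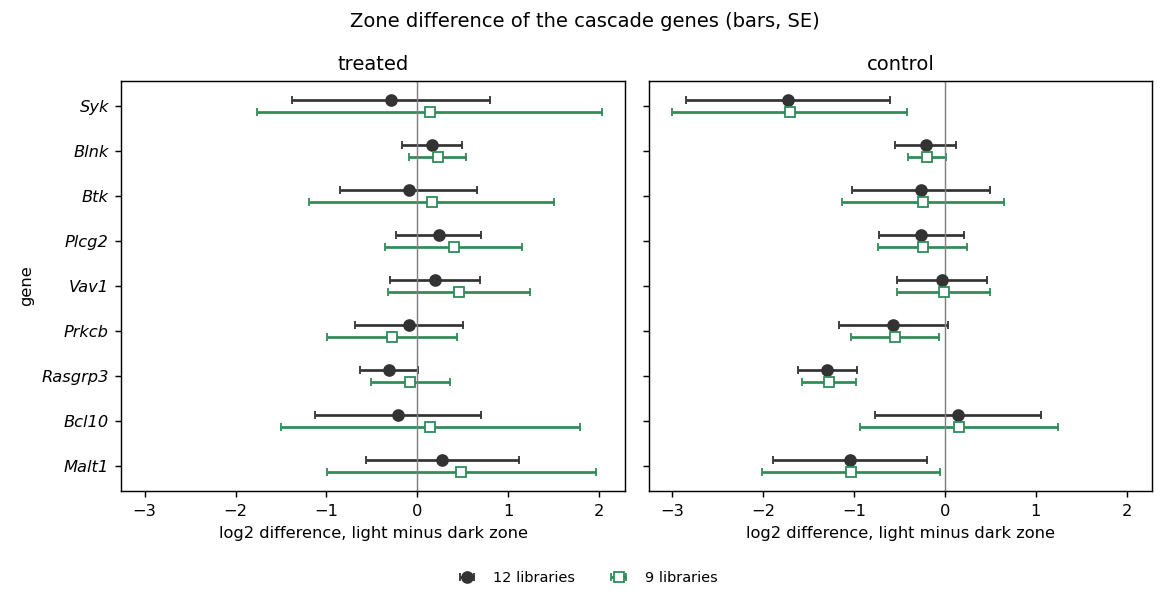
Zone difference of each cascade gene (x axis, log2, light minus dark zone) in treated (left) and control (right) mice, from all 12 libraries (filled circles) and from the 9 left without those that stand apart (open squares); bars are standard errors. In control mice Rasgrp3, at -1.29, lies furthest from 0 relative to its error, and in treated mice Rasgrp3, at -0.31, has the largest 12-library value of the members in size.

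Other genes of the pathway were read from 10 lists by role with 122 genes, of which 119 were tested. For the average of the zones, 80 of the 119 had a positive treatment difference, beside 53.9% of all genes, with a median log2 difference of 0.50 against 0.11. EdgeR called 0 of them and gave 26 a p under 0.05 before adjustment, beside 16.7% of all genes. DESeq2 called 10, all higher, beside 6.32% of all genes. Without the 3 libraries that stand apart, 58 of the 119 had a positive difference, beside 43.9% of all genes, and the median was -0.09 against -0.11 for all genes.

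Among kinases of the Src and Tec families, 6 of 8 had a positive averaged difference, 5 without the 3 libraries that stand apart, and 5 had a p under 0.05 before adjustment with all 12. DESeq2 called 3 of them: Fyn and Blk, which phosphorylate the receptor tails, and Fgr, a Src kinase best known from myeloid cells. Fyn had 41.9, 79.1 and 48.9 CPM in light zone treated libraries, against 8.57, 10.9 and 5.51 CPM in light zone control libraries. In the dark zone Fyn had 46.8, 38.5 and 23 CPM in treated libraries, against 13.6, 13.8 and 21.4 CPM in control libraries. As for Btk, every treated value of Fyn lay above every control value. Its averaged log2 difference was 1.96 ± 0.37 (SE), with an adjusted p of 0.222 in edgeR and 1.169e-06 in DESeq2. Blk had 33.6, 183 and 81.2 CPM in light zone treated libraries, against 17.3, 45.5 and 42.9 CPM in light zone controls. Its dark zone values were 129, 109 and 57.6 CPM after treatment, against 34.8, 46.8 and 33.2 CPM in controls. The highest 3 values of Blk were those of the 3 libraries that stand apart.

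Of 18 genes on the way from Bcl10 and Malt1 to NF-kB, 11 had a positive averaged difference, and 8 without the 3 libraries that stand apart. DESeq2 called the adaptor Traf2, which had a log2 difference of 1.88 ± 0.64 (SE), with an adjusted p of 0.232 in edgeR and 0.0386 in DESeq2.

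DESeq2 also called Itpr2, an inositol trisphosphate receptor that releases calcium, Map2k2, the kinase of Erk, Dock8, an exchange factor for Cdc42, Prkcd, another protein kinase C, and Dgkz, which removes diacylglycerol. Map2k2 had the largest difference among these 5, 3.13 ± 0.86 (SE). It had 26.2, 134 and 29.6 CPM in light zone treated libraries, against 0.327, 6.37 and 23 CPM in light zone controls, the highest being a library that stands apart. Of 16 calcium and NFAT genes 12 had a positive difference, of 9 genes of PI3 kinase and Akt 8, and of 15 inhibitory receptors and phosphatases 12. Without the 3 libraries these counts were 10, 5 and 5. Of 18 genes of Ras and the MAP kinases 7 had a positive difference, and the 5 receptor and coreceptor genes divided into 3 positive and 2 negative. These became 5 of 18 and 5 of 5 positive without the 3 libraries. Cd79b, a receptor chain to which Syk binds, averaged 2017 CPM in light zone treated and 1669 CPM in light zone control libraries, and 1999 CPM in dark zone treated and 2446 CPM in dark zone control libraries.

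In the zone comparison of control mice, 62 of the 119 pathway genes had a positive difference and 57 a negative one, with a median of 0.04. EdgeR and DESeq2 called 0 of them, beside 0% and 0.96% of all genes, and 3 had a p under 0.05 before adjustment in edgeR, beside 4.93%. Of the pathway genes, Cr2, the complement receptor that lowers the threshold of the receptor, had an averaged zone difference of 1.12 ± 0.36 (SE), with an adjusted p of 0.991 in edgeR and 0.13 in DESeq2.

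For each member, the genes with the most similar pattern were found by the root mean square difference between centred log2 CPM values over the 12 libraries, among genes with a mean of at least 10 CPM. Prkcb was closest to Mpnd (0.33) and Blk (0.34), beside its own spread of 0.84 on this scale. Rasgrp3 was closest to Ezh2 (0.31) and Cited2 (0.33), beside a spread of 0.58. Btk was closest to Tnpo3 (0.55) and Ucp2 (0.63), beside a spread of 1.27.
Plcg2 was closest to Tpr (0.28) and Uvrag (0.32), Vav1 to Hadha (0.31) and 2610507B11Rik (0.37), and Blnk to Tcp1 (0.18) and Son (0.19). Bcl10 was closest to Ints7 (0.46) and Sos1 (0.56), Malt1 to Cpsf3 (0.40) and Pik3cg (0.49), and Syk to Csnk1g2 (0.71) and Stat5b (0.75). Blk, Sos1 and Pik3cg are themselves genes of the pathway lists. All of these values come from the same 12 libraries and share their depth and amplification.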

How the data were processed

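Amplified cDNA of 1000 sorted cells per library was made with a SMART-Seq kit and turned into sequencing libraries with Nextera XT, per the labels' protocols. The submitters' processing notes name BWA and the build mm10, and the sources used here give no counting tool. The authors deposited 1 table of estimated counts per gene symbol for each library, which holds some values midway between whole numbers. Blank cells were read as 0 and values rounded to whole numbers, midway values upward. Libraries held 16032746 to 26837714 counts.

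EdgeR 4.0.16 in R 4.3.3 was fitted to all 12 libraries with a term per group (TMM, filterByExpr with a minimum count of 10 and total of 15, robust quasi-likelihood, two-sided), which left 12081 genes, and p-values were adjusted by Benjamini-Hochberg over these at 0.05. Contrasts were treatment and zone within each level of the other, their averages and their interaction. CPM used TMM library sizes, log2 CPM a prior count of 2. A standard error is the log2 difference divided by the root of F. DESeq2 1.42.0, limma 3.58.1 with voom and quality weights, other scaling, no filter, single libraries left out, a replicate block, and fits without the 3 libraries that stand apart or with a term for them were alternatives; DESeq2 without these 3, and the pathway list counts without them, were chosen after seeing the data. The procedure was run on simulated counts with known changes in the light zone treated group alone. No simulated libraries stood apart, so this run does not cover that feature of the data.

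Cascade members, pathway and marker lists were chosen with earlier results of these data known. All 9 members are named; of the pathway lists, up to 3 genes a list by largest averaged difference with a mean of at least 10 CPM, and any gene called, could be named. Library numbers shared between zones were checked, and 3 of 6 pairs correlated above 0.1. This did not settle whether they shared a mouse, and libraries were not treated as paired. Genes and exons follow GENCODE annotation of GRCm38. A result on 1 further pathway gene is not reported here.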

Additional observations from a re-analysis of the deposited data

How the results depend on the processing

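EdgeR called 0 genes and 0 members in all 7 comparisons, as did leaving out each library in turn (0 to 0). DESeq2 called 73 genes for treatment in the dark zone, 223 in the light zone and 744 averaged, 113 for zone in control and 1 in treated mice, 64 for the averaged zone difference and 16 for treatment by zone; without the 3 libraries that stand apart it called 223, 442, 398, 118, 369, 384 and 231. Members called by DESeq2 were 1 for zone in control, with and without these libraries, and 1 for averaged treatment. Limma called 3178 genes and 3 members for treatment in the dark zone, 1 gene for zone in control, and 1067 genes and 2 members for averaged treatment. With a term for the 3 libraries, 2 genes passed in the averaged zone difference. The cause of these differences between tools was not tested. Of 906 alternative log2 differences of members, 857 kept their sign and side of the threshold, 8 passed it and 41 changed sign, 25 of them with 1 library left out.

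Dark zone treatment differences changed sign for Rasgrp3 with RLE scaling (-0.0183), DESeq2 (-0.0185), 9 libraries (-0.26, and -0.28 in DESeq2) and the term (-0.20), for Bcl10 with 9 libraries (-0.36, and -0.37 in DESeq2) and the term (-0.28), for Blnk with 9 libraries (0.0213) and the term (0.23), and for Prkcb with the term (-0.0252). In treated mice the zone difference of Plcg2 was -0.0657 in limma, and that of Syk 0.13 and 0.16 with 9 libraries (edgeR and DESeq2) and 0.10 with the term. The difference between zones in the Syk treatment difference was -0.0322 in limma. Leaving out 1 library, the dark zone treatment difference ranged over -0.19 to 0.35 for Rasgrp3 and -0.26 to 0.76 for Bcl10, and the light zone one over -0.21 to 0.43 for Blnk and -0.95 to 0.30 for Bcl10. In control mice, zone differences ranged over -1.23 to 0.89 for Btk, -0.60 to 0.21 for Plcg2, -0.55 to 0.27 for Vav1 and -0.21 to 0.81 for Bcl10. In treated mice they ranged over -0.82 to 0.27 for Syk and -0.0371 to 0.41 for Plcg2, and the treatment by zone value of Btk over -0.99 to 1.13.

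With the replicate number as a block, which could be fitted for the zone comparisons and the interaction, 0 genes and 0 members passed, and the zone difference of Rasgrp3 in control mice was -1.24 ± 0.31 (SE). Same-numbered libraries correlated at 0.03, -0.00 and 0.12 in control and -0.31, 0.54 and 0.30 in treated mice. Treated libraries of number 2 both stand apart, whereas of number 1 only the dark zone library does. The correlations therefore cannot tell whether same-numbered libraries shared a mouse. Groups of 3 limit precision, most of all for Syk, Bcl10 and Malt1, whose spread within groups was the largest of the members. The part of amplification from 1000 cells in this spread was not tested.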
